A study of Drosophila melanogaster with 4 samples.

Results

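Midgut mRNA of untreated flies at 16 h was compared with midgut mRNA of untreated flies at 2 h in Drosophila melanogaster. Poly(A) RNA had been sequenced from 4 groups, with 1 library each: untreated midguts at 16 h and at 2 h, and uracil-treated midguts at 16 h and at 2 h. The untreated flies are labelled as controls. The labels do not say what event the hours are counted from, and give no genotype, sex, age, feeding regime, number of guts per library or time of day of dissection. Of 13585 genes, the 6487 (47.8%) with a mean of at least 10 normalized counts over the 2 untreated libraries were compared, as log2((16 h + 1)/(2 h + 1)). Genes at or beyond 1 on this scale in either direction, 261 in all, are described here by function. Only 87 of them (38 higher, 49 lower) fell in a gene list of shared function or tissue. The families below therefore do not cover the rest, many of which are not named. A normalized count is a read count divided by the effective size of its library. With 1 library per time there is no replicate spread, so "higher" and "lower" state a size and carry no test, and intervals given after a fold (exact Clopper-Pearson, 95%) cover counting error only.

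The fly midgut is the part of the intestine that digests and absorbs food. Its enterocytes secrete proteases, carbohydrases and lipases, take up sugars, amino acids and lipids, and sit behind the peritrophic matrix, a chitin and protein sheet that lines the lumen. The same cells degrade bacterial peptidoglycan, detoxify dietary compounds with cytochromes P450 and glutathione transferases, and hold a circadian clock. Many of these genes are known to respond to feeding, bacteria and time of day.

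Markers of the labelled tissue were present: all 16 enterocyte markers passed the filter on low values, among them betaTry at 3811 normalized counts at 16 h and 7383 at 2 h, and Mal-A1 at 5096 at 16 h and 3251 at 2 h. The untreated libraries held 16588143 reads in genes at 16 h and 8500378 at 2 h, and the uracil libraries held 8841796 at 16 h and 8990316 at 2 h, so the untreated 16 h library was the deepest. A single read was worth 0.0584 normalized counts in it and 0.127 in the untreated 2 h library. Of the 16 enterocyte markers, 3 were at least 2-fold lower at 16 h in untreated midgut and 0 higher (2.16% lower and 1.87% higher over all genes). They were Jon99Ciii, Jon65Aiii and mex1 (233 at 16 h, 482 at 2 h). Jon99Ciii and Jon65Aiii are counted again among the Jonah proteases below, so the marker and Jonah results are not separate. The 16 had 11 below 0 and held 2.54% of the 16 h library and 3.42% of the 2 h library. None of 17 Malpighian tubule markers, 11 hemocyte markers or 7 fat body markers kept was 2-fold apart in untreated midgut, with medians of -0.01, 0.11 and 0.01 on the log2 scale. Of 19 visceral muscle markers kept, 1 was, sls, at 147 at 16 h and 63.9 at 2 h.

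At 16 h, 121 genes were at least 2-fold higher than at 2 h (1.87% of those compared) and 140 were at least 2-fold lower (2.16%). The median over all 6487 genes was 0.03. Together the lower genes held 3.07% of the 16 h library and 6.996% of the 2 h library, and their median level was 54.6 normalized counts at 16 h and 142.7 at 2 h. The higher genes held 1.64% of the 16 h library and 0.543% of the 2 h library, with a median level of 48.3 at 16 h and 18.4 at 2 h. The column totals differed, and scaling both columns to the same total moved the median of all genes up by 0.15 and gave 224 higher and 104 lower genes, so that 68.3% of the calls were higher in place of 46.4%. At the thresholds, wtrw (24.9 at 16 h, 11.9 at 2 h) lay just inside and neb (19.7 at 16 h, 9.38 at 2 h) just outside on the higher side. On the lower side Abca3 (370.5 at 16 h, 742 at 2 h) lay just inside and Peritrophin-15a (229 at 16 h, 456 at 2 h) just outside.

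**Figure D1:**
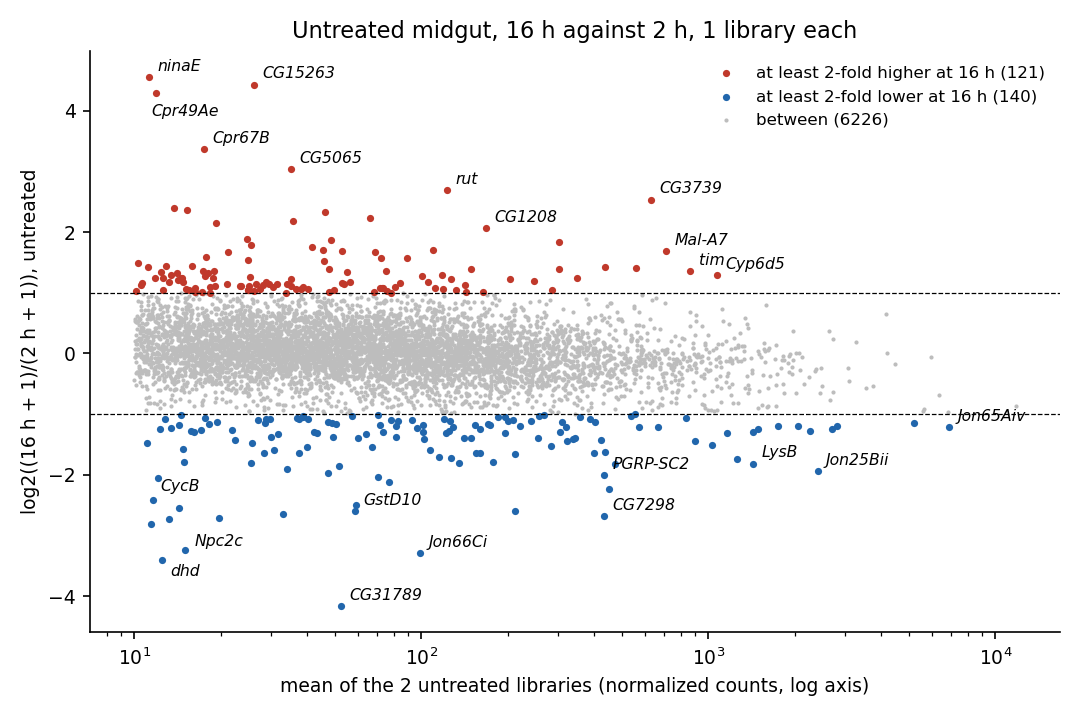
Each point is 1 of 6487 genes, with its mean over the 2 untreated libraries on a log axis and its log2 ratio, 16 h over 2 h, on the vertical axis; dashed lines mark 2-fold. Of the 121 higher genes ninaE, CG15263 and Cpr49Ae stand at the top, and of the 140 lower genes CG31789 stands at the bottom and the protease gene Jon65Aiv furthest right.

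The genes furthest apart on the higher side were the opsin ninaE, CG15263 and the cuticle protein genes Cpr49Ae and Cpr67B. CG15263 had 50.6 normalized counts at 16 h and 1.40 at 2 h (36.3-fold higher, 20.2 to 73.0), and 5.10 and 1.89 in the uracil libraries. Cpr49Ae had 23.5 at 16 h and 0.254 at 2 h, the last from 2 reads (92.8-fold higher, 25.5 to 769). Cpr67B had 32.8 at 16 h and 2.28 at 2 h (14.4-fold higher, 9 to 24.4). Both proteins belong to the CPR family, which binds chitin in the insect cuticle, and both genes were high at 16 h and low at 2 h with uracil as well, at 67.5 and 0.236 for Cpr49Ae and at 53.5 and 1.77 for Cpr67B. Of 127 cuticle protein genes matched, these 2 alone passed the filter. In the untreated pair 69 had no read in the deeper 16 h library and 96 none in the 2 h library. In the uracil pair, of similar depth, 76 had none at 16 h and 90 none at 2 h. CG15263, Cpr49Ae and Cpr67B reached a mean of 10 only through the untreated 16 h library, so that passing the filter required them to be higher there.

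A few further genes known for roles in barrier lipids or cuticle were also higher, though they were taken from the largest ratios and from several lists and form no list of their own. The gene osy encodes an ABC transporter of barrier lipids and had 23.8 at 16 h and 3.68 at 2 h (6.46-fold higher, 4.43 to 9.78). CG5065, a predicted fatty acyl-CoA reductase gene, had 63.4 at 16 h and 6.85 at 2 h (9.26-fold higher, 7.04 to 12.4), and 237 and 8.27 with uracil. The tyrosine hydroxylase gene ple, whose enzyme makes the precursor of dopamine and of cuticle tanning agents, had 32.1 at 16 h and 6.47 at 2 h (4.96-fold higher, 3.72 to 6.74). The chitin-binding protein gene Gasp had 25.4 at 16 h and 11.3 at 2 h. In each of these the uracil library at 16 h was also the higher of its pair. osy, CG5065 and ple passed the filter only through the untreated 16 h library. The ABC transporter gene snu, a relative of osy picked here after its values were seen, had 32.4 at 16 h and 14.5 at 2 h. Of the 4 chitin synthesis and modification genes kept, 0 were 2-fold apart and all 4 lay below 0, with a median of -0.39. Fewer cells of a type and less RNA per cell cannot be told apart in whole-midgut RNA, here or in the results that follow.

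ninaE encodes the main rhodopsin of the outer photoreceptors. It had 22.5 normalized counts (385 reads) in the untreated 16 h library and no read in the untreated 2 h library, which makes it at least 59.1-fold higher against a floor of 3 reads, while the lower limit of the exact interval is 47.8-fold. ninaE passed the filter only through the untreated 16 h library, and had 0.665 and 0.118 in the uracil libraries at 16 h and 2 h. Other photoreceptor genes below the filter lay the same way in untreated midgut. The arrestin gene Arr2 had 13.0 at 16 h and 0.254 at 2 h, and Arr1 had 8.76 at 16 h and no read at 2 h. With uracil at 16 h, Arr2 was at 0.111 and Arr1 at 0.222. Over the whole list of 23 neuron and photoreceptor genes, the summed level was 128 in untreated midgut at 16 h and 41.98 at 2 h. At 0 reads were 1 member in the deeper untreated 16 h library and 10 members in the untreated 2 h library. In the uracil pair, of similar depth, 4 members were at 0 at 16 h and 11 at 2 h. The uracil libraries summed to 106 at 16 h and 43.6 at 2 h, where ninaD, a scavenger receptor gene for carotenoids, gave 51.1 and 0.236. The general neuronal genes elav (6.13 at 16 h, 4.44 at 2 h) and nSyb (6.95 at 16 h, 7.99 at 2 h) did not share the pattern in untreated midgut. The part of photoreceptor RNA in the ninaE result was not tested.

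The lower genes included 11 Jonah proteases, 3 trypsins and 3 other digestive serine proteases. The Jonah genes encode chymotrypsin-like serine proteases of the larval and adult gut. Of 15 kept, 11 were at least 2-fold lower at 16 h and 0 higher, against 2.16% lower over all genes, and all 15 lay below 0 with a median of -1.20. Together the matched members held 1.79% of the 16 h library and 3.66% of the 2 h library. Jon65Aiv had 4144 normalized counts at 16 h and 9612 at 2 h (2.32-fold lower, 2.30 to 2.34). Jon65Aiii had 3253 at 16 h and 7177 at 2 h. Jon25Bii had 990 at 16 h and 3812 at 2 h (3.85-fold lower, 3.78 to 3.93). Its neighbour among the genes compared, Jon25Bi, had 580.0 at 16 h and 1936 at 2 h. Jon66Ci stood furthest apart, at 17.5 at 16 h and 180 at 2 h (10.3-fold lower, 9.07 to 11.7). The 4 members that stayed within 2-fold were Jon99Fi, Jon99Fii, Jon99Ci and Jon74E, with log2 ratios from -0.95 to -0.54.

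The Jonah genes did not all do so in the uracil pair, which shares no library with the untreated pair. There 3 of the 15 were at least 2-fold lower at 16 h and 6 higher (2.5% lower and 5.5% higher over all genes), with a median of -0.33. Jon25Bii (959 at 16 h, 3448 at 2 h), Jon25Bi (510 at 16 h, 1697 at 2 h) and Jon65Aiii (3274 at 16 h, 6621 at 2 h) were lower with uracil as without. Jon66Ci, Jon44E, Jon65Ai, Jon65Aii, Jon99Fi and Jon99Fii were higher. Jon65Aii, for example, had 118 and 26.9 with uracil at 16 h and 2 h, and 30.0 and 67.3 untreated at 16 h and 2 h. Copies within the Jon25B, Jon65A and Jon99C clusters are similar in sequence and the authors' counting of shared reads is not given, so the split among neighbours is uncertain.

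**Figure D2:**
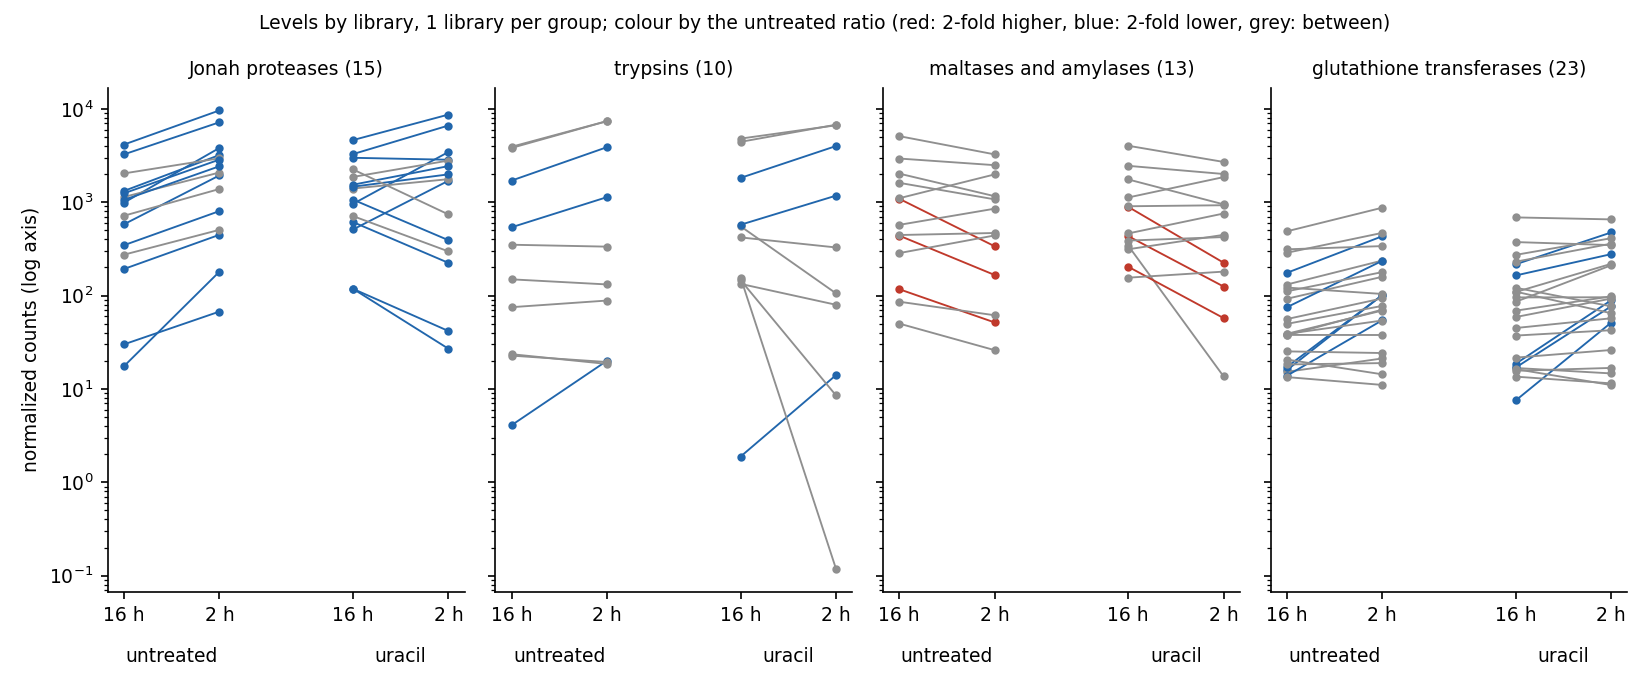
Normalized counts on a log axis for each kept member of 4 gene families, with the 16 h library left of the 2 h library in each treatment, 1 library per group; lines join the same gene. Untreated, all 15 Jonah genes stand lower at 16 h, while with uracil 6 of them are at least 2-fold higher; the red maltases Mal-A7, Mal-A2 and Mal-A4 are higher at 16 h in both treatments.

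Trypsins split by gene. Of 10 kept, 3 were at least 2-fold lower at 16 h and 0 higher (2.16% lower and 1.87% higher over all genes), with a median of -0.57. The lower 3 were deltaTry (4.09 at 16 h, 20.0 at 2 h), epsilonTry (1705 at 16 h, 3885 at 2 h) and thetaTry (539 at 16 h, 1133 at 2 h), and all 3 were also at least 2-fold lower with uracil. deltaTry passed the filter only through the untreated 2 h library. alphaTry and betaTry, near-identical copies whose shared reads could be split either way, lay at -0.91 and -0.95. lambdaTry, iotaTry and zetaTry lay within 0.33 of 0 without uracil but between 2.38 and 7.13 with it. Of 19 other digestive serine proteases kept, 3 were lower and 0 higher, with 17 below 0 and a median of -0.57. They were CG17571 (194 at 16 h, 605 at 2 h), CG6462 (14.8 at 16 h, 46.5 at 2 h) and CG18180 (1592 at 16 h, 3779 at 2 h). CG17571 went the other way with uracil, at 1017 at 16 h and 180 at 2 h.

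Some genes of other digestive enzymes were higher at 16 h, while most of their families stayed within 2-fold. Of 13 maltases, amylases and related glycosidases kept, 3 were at least 2-fold higher (1.87% over all genes) and 0 lower, with a median of 0.59. The family held 1.64% of the 16 h library and 1.15% of the 2 h library. The 3 were maltase genes. Mal-A7 had 1088 normalized counts at 16 h and 337 at 2 h (3.23-fold higher, 3.10 to 3.36), Mal-A2 had 438 at 16 h and 166 at 2 h, and Mal-A4 had 117 at 16 h and 51.5 at 2 h. Each was higher with uracil too. The amylase genes Amy-p and Amy-d, near-identical copies, lay on the other side at -0.85 and -0.63. Of 11 zinc carboxypeptidases, which trim amino acids from the ends of peptides, 4 were higher and 0 lower: CG7025 (27.1 at 16 h, 8.37 at 2 h), CG18417 (69.2 at 16 h, 25.7 at 2 h), CG18585 (51.9 at 16 h, 24.3 at 2 h) and CG3097 (20.9 at 16 h, 9.51 at 2 h). These 4 were higher with uracil as well, and CG7025 had no read there at 2 h. CG7025 and CG3097 passed the filter only through the untreated 16 h library. The median of the 11 was 0.29, yet the family as a whole held less of the 16 h library (1.20%) than of the 2 h library (1.71%), with 3 of the 11 below 0. CG3739, a predicted serine exopeptidase gene outside the lists, had 1079 at 16 h and 185 at 2 h (5.83-fold higher, 5.53 to 6.15). Of 14 membrane aminopeptidases and dipeptidases kept, 1 was higher, Dip-B (384 at 16 h, 184 at 2 h), and 0 lower, with 6 below 0 and a median of 0.05.

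Lipases and lipid genes went both ways. Of 21 lipase genes kept, 2 were at least 2-fold higher and 2 lower, against 1.87% higher and 2.16% lower over all genes. The higher ones were CG31091 (77.9 at 16 h, 14.7 at 2 h) and CG2772 (22.4 at 16 h, 10.2 at 2 h). bmm encodes the triglyceride lipase of lipid droplets and had 214 at 16 h and 661 at 2 h (3.08-fold lower, 2.95 to 3.22). mag encodes a gut lipase that also splits cholesteryl esters and had 667 at 16 h and 1656 at 2 h (2.48-fold lower, 2.42 to 2.55). Both were among 16 lipid synthesis and storage genes, of which they were the 2 lower ones. In this list 14 of 16 lay below 0, with a median of -0.33. It does not hold every lipid gene 2-fold apart. Picked after values were seen, Seipin (77.3 at 16 h, 203 at 2 h) and Agpat2 (33.9 at 16 h, 101 at 2 h) were lower. Agps (16.7 at 16 h, 5.58 at 2 h) and bond (18.2 at 16 h, 7.10 at 2 h) were higher, but passed the filter only through the untreated 16 h library. Npc2c, a sterol-binding protein gene, had 2.04 at 16 h and 27.9 at 2 h (13.7-fold lower, 9.52 to 20.1), but 66.7 and 16.5 with uracil. Npc2c passed the filter only through the untreated 2 h library. It overlaps an antisense RNA, and without the strand setting their reads cannot be told apart. The lipid scavenger receptor gene emp was higher, at 97.9 at 16 h and 45.9 at 2 h.

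Genes of the peritrophic matrix and mucus were split. Of 27 peritrophins and chitin-binding proteins kept, 1 was higher (Gasp) and 3 were lower, against 1.87% higher and 2.16% lower over all genes. CG7298 had 116 normalized counts at 16 h and 750.4 at 2 h (6.45-fold lower, 6.13 to 6.79). Its neighbour among the genes compared, CG6933, had 4.50 at 16 h and 34.9 at 2 h (7.75-fold lower, 6.002 to 10.1). Peritrophin-15b had 52.2 at 16 h and 113 at 2 h. All 3 were lower with uracil as well, CG7298 at 82.0 at 16 h and 879 at 2 h. Of 5 mucins, Muc14A was lower, at 2.10 at 16 h and 20.7 at 2 h. CG6933 and Muc14A passed the filter only through the untreated 2 h library. Over all 27 chitin-binding genes the median was 0.10, but -0.38 over the members averaging 50 normalized counts or more.

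Of the immune lists, a few genes were lower at 16 h and 0 higher (2.16% lower over all genes). Of 6 lysozyme genes kept, LysB (633 at 16 h, 2229 at 2 h; 3.52-fold lower, 3.44 to 3.61) and LysX (13.1 at 16 h, 38.3 at 2 h) were lower and 0 higher, with a median of -0.91. LysB, LysC, LysD and LysE are near-identical copies, and how their reads were assigned is uncertain. Of 19 peptidoglycan recognition and IMD pathway genes, 3 were lower and 0 higher, and 18 lay below 0 with a median of -0.27. PGRP-SC2 and PGRP-SC1b encode amidases that degrade peptidoglycan, and pirk encodes an inhibitor of the IMD pathway. PGRP-SC2 had 172 at 16 h and 693 at 2 h (4.03-fold lower, 3.86 to 4.22), PGRP-SC1b had 18.6 at 16 h and 75.7 at 2 h (4.06-fold lower, 3.54 to 4.67), and pirk had 77.5 at 16 h and 243 at 2 h (3.14-fold lower, 2.93 to 3.37). With uracil PGRP-SC2 and pirk lay within 2-fold and PGRP-SC1b was higher, at 129.5 at 16 h and 33.0 at 2 h. No antimicrobial peptide gene passed the filter: 21 matched genes summed to 11.9 at 16 h and 18.9 at 2 h.

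Glutathione transferases, which conjugate glutathione to reactive compounds, stood mostly lower at 16 h. Of 23 kept, 5 were at least 2-fold lower and 0 higher, against 2.16% lower and 1.87% higher over all genes. In this list 18 lay below 0, and the median was -0.71. GstD10 had 15.9 at 16 h and 101 at 2 h (6.38-fold lower, 5.55 to 7.35), and GstD9 had 17.2 at 16 h and 101 at 2 h (5.89-fold lower, 5.14 to 6.75). GstD8 (13.8 at 16 h, 54.4 at 2 h), GstD1 (175 at 16 h, 432 at 2 h) and GstE7 (74.9 at 16 h, 236 at 2 h) completed the set. The 4 GstD genes were also at least 2-fold lower with uracil, where GstD10 had 18.6 at 16 h and 89.2 at 2 h, while GstE7 lay at -0.75 there. The GstD genes form a cluster of similar copies, among which reads could be shared. Of 46 cytochromes P450, Cyp6d5 was higher (1528 at 16 h, 622 at 2 h) and Cyp12a5, Cyp4g1, Cyp4e3 and Cyp309a1 were lower, with a median of -0.03. The UDP-glycosyltransferases had 1 of 20 higher, Ugt37B1, and 1 lower, Ugt301D1. Hsp22, a small heat shock protein gene, was higher, with 22.02 at 16 h and 10.4 at 2 h, and was the only 1 of 9 chaperone genes kept that was 2-fold apart.

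Among 14 clock genes kept, tim and to were 2-fold higher at 16 h in untreated midgut and 0 lower (1.87% higher and 2.16% lower over all genes). With uracil to was higher and per lower (5.5% higher and 2.5% lower over all genes). In the fly clock, CLK and CYC drive transcription of per, tim and vri, and PER and TIM proteins then inhibit them, so that per and tim mRNA peak in the early night. In untreated midgut tim had 1246 normalized counts at 16 h and 485 at 2 h (2.57-fold higher, 2.48 to 2.66), and per had 48.4 at 16 h and 26 at 2 h (1.86-fold higher, 1.597 to 2.18). vri had 222 at 16 h and 169 at 2 h, and Clk had 46.3 at 16 h and 64.4 at 2 h. With uracil, tim had 597 at 16 h and 649 at 2 h, per had 16.3 at 16 h and 46.2 at 2 h, and vri had 133 at 16 h and 241 at 2 h. The feeding-related gene to, which is known to be under clock control in the head, was higher at 16 h both without uracil (64.7 at 16 h, 18.4 at 2 h) and with it (103 at 16 h, 25.1 at 2 h). The other 9 genes of the list, Pdp1, CkIIbeta, cyc, cwo, jet, wdb, mts, sgg and tws, lay between -0.45 and 0.37 in untreated midgut and between -0.29 and 0.28 with uracil. The list medians were -0.04 without uracil and 0.05 with it, and the difference between the treatments was not tested. The time of day at which each of the 4 libraries was taken is not given, so time of day and hours in the experiment cannot be told apart.

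Genes for mitochondrial gene expression and for the nucleolus lay slightly higher at 16 h as whole lists in untreated midgut. These 4 lists were drawn up after values had been seen, so their direction is a description. Of 64 mitochondrial ribosomal protein genes, 63 lay above 0 with a median of 0.53. Of these, mRpS10 (33.9 at 16 h, 16.0 at 2 h) and mRpL27 (23.2 at 16 h, 11.03 at 2 h) were 2-fold higher, against 1.87% over all genes. Of 11 genes listed for mitochondrial DNA and RNA maintenance, 3 were 2-fold higher with a list median of 0.71. Of these 3, mEFG1 acts in translation rather than in maintenance. The mitochondrial RNA polymerase gene PolrMT had 168 at 16 h and 68.0 at 2 h (2.47-fold higher, 2.25 to 2.71), mtSSB, which encodes the single-strand DNA-binding protein, had 40.4 at 16 h and 17.2 at 2 h, and the elongation factor gene mEFG1 had 73.2 at 16 h and 32.2 at 2 h. Of 8 import genes, Tom40 was 2-fold higher (162 at 16 h, 76.5 at 2 h; list median 0.50). All 24 nucleolar and rRNA processing genes lay above 0 with a median of 0.65, led by Nlp (195 at 16 h, 88.6 at 2 h), sle (41.7 at 16 h, 18.9 at 2 h) and Fib (220 at 16 h, 108 at 2 h).

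With uracil the same 4 lists had medians of -0.10, 0.09, 0.15 and 0.23, in the order above, and 0 members of any of them were 2-fold apart. In untreated midgut the 62 respiratory chain genes lay at -0.04 and the 74 cytosolic ribosomal protein genes at -0.10, each with 0 genes 2-fold apart, and both medians turn positive (0.12 and 0.05) with the columns scaled to the same total. The 18 tricarboxylic acid cycle genes lay at 0.19, also with 0 genes 2-fold apart.

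**Figure D3:**
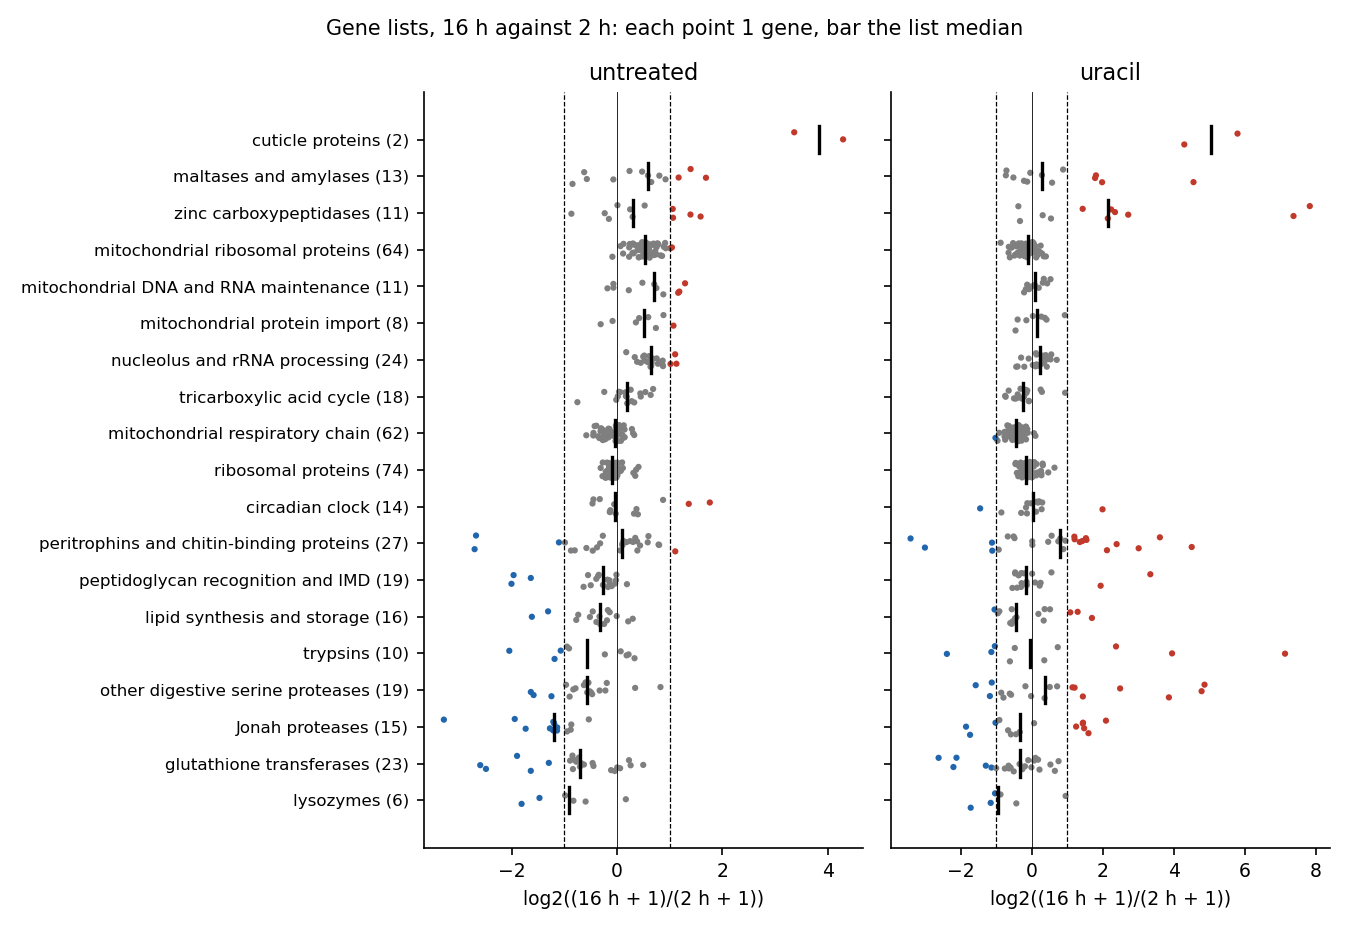
Log2 ratio, 16 h over 2 h, of each kept gene in 19 lists, untreated on the left and uracil on the right; numbers in brackets are genes kept, bars are list medians, red and blue points are at least 2-fold higher and lower, and dashed lines mark 2-fold. Untreated, the Jonah, glutathione transferase and lysozyme medians lie furthest below 0, and the mitochondrial and nucleolar lists lie between 0.50 and 0.71 but between -0.10 and 0.23 with uracil.

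Some transporter genes were 2-fold apart on either side, where all genes had 1.87% higher and 2.16% lower. CG1208, a predicted sugar transporter gene, had 272 at 16 h and 64.0 at 2 h (4.25-fold higher, 3.88 to 4.67), while nebu, of the same list, had 49.7 at 16 h and 107 at 2 h. The zinc importer gene Zip89B had 27.1 at 16 h and 114 at 2 h (4.21-fold lower, 3.76 to 4.72), and the multicopper oxidase gene Mco1 had 105 at 16 h and 51.9 at 2 h, 1 lower and 1 higher of 30 metal-handling genes. CG12490, of the major facilitator superfamily, had 2.75 at 16 h and 23.7 at 2 h (8.64-fold lower, 6.24 to 12.2). Its neighbours among the genes compared, CG9825 and CG9826, were lower beside it. CG3036, CG13796 and CG9864 were lower and CG5535 higher of 20 amino acid and peptide transporters. Among signalling genes, the adenylyl cyclase gene rut had 214 at 16 h and 32.3 at 2 h (6.62-fold higher, 5.83 to 7.55), with 55.7 and 29.9 in the uracil pair, and overlaps a long non-coding RNA. CNMa, a neuropeptide gene, had 3.45 at 16 h and 25.1 at 2 h (7.29-fold lower, 5.42 to 9.92). CNMa, CG12490 and CG9826 passed the filter only through the untreated 2 h library. The EGF receptor ligand gene Krn (24.8 at 16 h, 52.4 at 2 h) and the FGF ligand gene bnl (37.3 at 16 h, 77.1 at 2 h) were lower, and the homeobox gene hth was higher (45.3 at 16 h, 22.1 at 2 h).

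CG31789 stood furthest apart on the lower side, at 4.67 normalized counts at 16 h and 101 at 2 h (21.5-fold lower, 17.1 to 27.4), and next came dhd, a germline thioredoxin gene, at 1.34 at 16 h and 23.7 at 2 h (17.7-fold lower, 11.4 to 28.5). The mitotic cyclin gene CycB had 2.98 at 16 h and 20.2 at 2 h (6.77-fold lower, 4.91 to 9.47), and was the only 1 of 12 cell cycle genes kept that was 2-fold apart. CG31789, CycB and dhd reached a mean of 10 only through the 2 h library, so passing the filter required them to be higher there. The female germline mRNAs osk and yl, below the filter, lay the same way as dhd. The oocyte determinant osk had 0.175 at 16 h and 3.80 at 2 h, and the yolk receptor gene yl had 0.234 at 16 h and 5.58 at 2 h. The 23 ovary and early embryo genes summed to 44.7 at 16 h and 76.3 at 2 h, with 10 and 4 of them at 0 reads, and to 136 and 125 with uracil, with 6 and 11 at 0. With uracil dhd (36.5 at 16 h, 114 at 2 h) and CycB (38.9 at 16 h, 83.3 at 2 h) were lower at 16 h too, but osk (29.6 at 16 h, 23.3 at 2 h) was not. The 21 male reproductive genes went the other way, summing to 126 at 16 h and 61.4 at 2 h in untreated midgut. With uracil they summed to 71.2 at 16 h and 55.9 at 2 h. Of the 2 kept, bol was 2-fold higher in untreated midgut (50 at 16 h, 23.3 at 2 h), against 1.87% over all genes. The part of germline RNA in the dhd and CycB results was not tested.

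The uracil pair gave the same measure in libraries that the selection had not used. Of the 121 genes higher without uracil, 71 (58.7%) were also at least 2-fold higher with it, against 5.5% of all genes compared, and 1 was at least 2-fold lower. Of the 140 lower genes, 55 (39.3%) were also at least 2-fold lower, against 2.5% of all genes, and 14 (10%) were at least 2-fold higher. In sign alone, 6 of the 121 lay below 0 and 104 of the 140 below 0 with uracil, against 3681 of all 6487 genes. The log2 ratios of all 6487 genes had a standard deviation across genes of 0.49 without uracil and 0.70 with it. Their correlation across genes was 0.41 (Pearson) and 0.40 (Spearman), given as a description, since genes are not independent replicates. The genes high or low in both pairs included Cpr49Ae, Cpr67B, Mal-A7, Mal-A2, Mal-A4 and the 4 carboxypeptidase genes on the higher side and Jon25Bii, Jon25Bi, CG7298, CG6933 and the 4 GstD genes on the lower side.

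**Figure D4:**
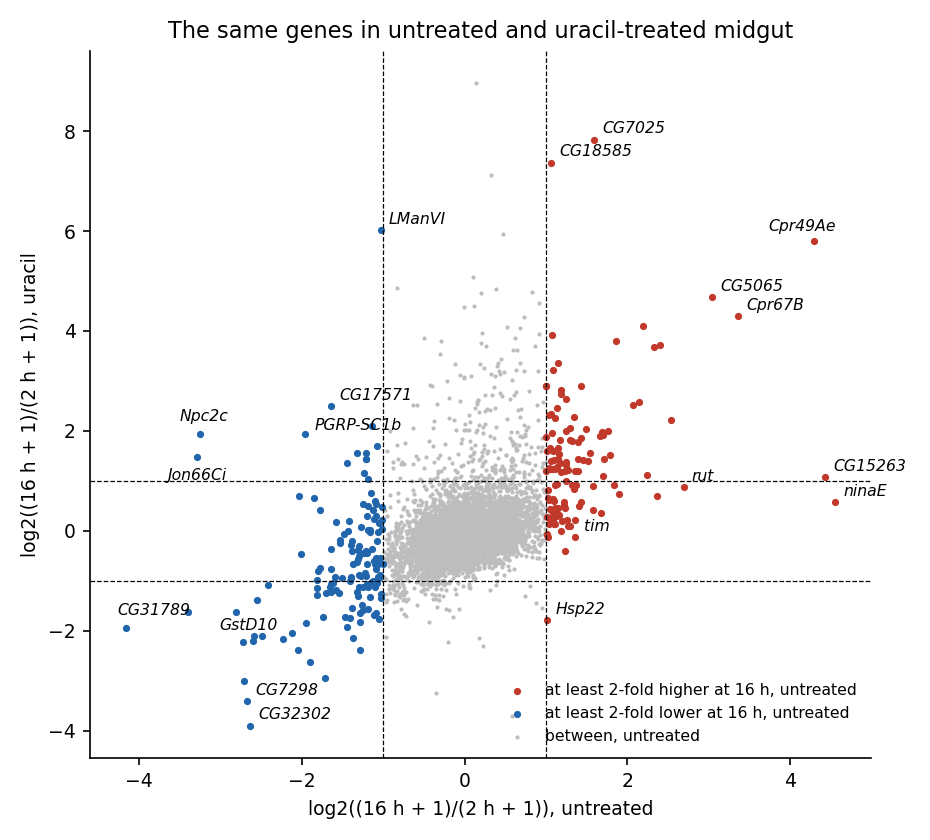
Log2 ratio, 16 h over 2 h, of the same 6487 genes without uracil (horizontal) and with uracil (vertical), with dashed lines at 2-fold. Red genes lie mostly above 0 on the uracil axis (all but 6 of 121), while the blue genes spread from below -1 (55 of 140) to above 1 (14 of 140, among them LManVI, Npc2c and Jon66Ci). Of all 6487 genes, 3681 lie below 0 on that axis.

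A time effect shared by both treatments was tested with limma in an additive model over the 4 libraries, whose 1 residual degree of freedom is the disagreement of the treatments. The test includes the untreated pair, so it is no separate evidence for genes picked from that pair, and it does not stand in for replicates. At an adjusted p of 0.05 over 8568 genes, 16 (0.187%) were higher and 20 (0.233%) lower at 16 h, and 32 of the 36 were among the 261 described here. An unadjusted p under 0.05 was met by 1371 genes. CG7298 fell by 3.04 (log2 units, SE 0.23, limma adjusted p = 0.0187, lower at 16 h in 2 of 2 pairs), and Jon25Bii fell by 1.90 (SE 0.16, limma adjusted p = 0.0187, lower in 2 of 2 pairs). Cpr49Ae rose by 5.04 (SE 0.41, limma adjusted p = 0.0187) and Cpr67B by 3.83 (SE 0.31, limma adjusted p = 0.0187), each higher in 2 of 2 pairs. CG3739 rose and CG10182 fell at the same adjusted p. GstD10, Jon25Bi, CG6933 and CG8665 fell and CG1208 rose at a limma adjusted p of 0.0190. The 4 genes called but below the filter of 10 normalized counts included ninaD (16.5 at 16 h, 0.254 at 2 h), CG15021 and CG6996. The adjusted p of 0.05 was not met by ninaE (log2 difference 2.56, limma adjusted p = 0.238), tim (0.62, limma adjusted p = 0.439) or rut (1.78, limma adjusted p = 0.128). Nor was it met by LysB (-1.48, limma adjusted p = 0.0612) or Jon66Ci (-0.91, limma adjusted p = 0.729).

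Some of the lower genes lay side by side among the genes compared. Genes below the filter were skipped, so other genes can lie between the members of a run. Of 138 lower genes that could be placed in the Ensembl annotation of BDGP6.54, 42 fell in 17 runs of neighbouring lower genes. Of 114 higher genes 11 fell in 5 runs. How many such runs all genes would give was not tested. Neighbour runs include tandem copies whose reads can be shared. The longest run on the lower side was CG6462 with Jon65Aiv, Jon65Aiii, Jon65Aii and Jon65Ai on chromosome arm 3L. Others were the Jon25B genes on 2L, GstD10, GstD9 and GstD1 on 3R, and Jon44E beside PGRP-SC1b and PGRP-SC2 on 2R, which are unrelated families. On the higher side sls lay beside zormin, which encodes another large muscle protein (68.4 at 16 h, 23.2 at 2 h). Exons of 70 of the 261 genes overlap exons of another gene, against 2558 of all 6487 genes compared. Leaving out all such genes left 91 higher and 100 lower.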

How the data were processed

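The authors deposited 1 signal per gene and library, which they call normalized counts. The tools edgeR, HTSeq, Bowtie, TopHat2 2.0.5 and cutadapt 1.0 appear in the submitters' processing notes, with no role or setting. Not given in the sources used here: genome build, annotation and strand setting. Every value (100% within 0.01 reads) was a whole multiple of 1 step per column, so reads were recovered by dividing by that step. There were no molecular identifiers, so reads are not independent molecules. Of 13646 lines, 118 shared 57 IDs and were summed, and 12888 of 13585 IDs had a symbol in a name table. Differences use a pseudocount of 1 and understate those of low genes. The main test was limma 3.58.1 (log2 of the value plus 1, additive time and treatment, trend, genes with a mean of at least 1, Benjamini-Hochberg FDR 0.05, prior of 5.29 degrees of freedom). As alternatives on recovered reads, edgeR 4.0.16 quasi-likelihood called 25 genes and DESeq2 1.42.0 called 297. Genes and lists were chosen with earlier results of these data known. The rule for named genes took the 15 highest and 15 lowest ratios, and up to 5 genes beyond 2-fold per list (or the furthest if none). It also took clock genes, genes at the thresholds and those first in the limma test. Not all genes that it took are given in the text above. Other genes given with values were picked after these were seen. A set of 84 IDs sharing all 4 read counts held none of the genes described. Alternatives were other pseudocounts, scalings, filters, depths and tools.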

Additional observations from a re-analysis of the deposited data

Results flagged for a closer look

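A set of 15 genes moved opposite ways by at least 2-fold, 16 h over 2 h, in uracil-treated and untreated midgut. With 1 library per group these differences between the treatments were not tested. The values are the log2 ratio with uracil minus that without. LManVI, a lysosomal alpha-mannosidase gene, differed by 7.04, with 2054 normalized counts with uracil at 16 h and 30.8 at 2 h, and 168 untreated at 16 h and 345 at 2 h. The sterol-binding protein gene Npc2c differed by 5.19. Among serine proteases the differences were 4.77 for Jon66Ci, 4.13 for CG17571, 3.23 for Jon65Aii, 2.66 for Jon44E and 2.65 for Jon65Ai. The amidase gene PGRP-SC1b differed by 3.91, the acyl-CoA-binding protein gene Acbp3 by 2.88 and Ag5r2 by 2.80. The cytochrome P450 gene Cyp4g1 differed by 2.77, the glycosyltransferase gene Ugt301D1 by 2.77, the nucleoside transporter gene Ent3 by 2.39 and the lectin gene lectin-37Da by 2.23. In these 14 genes the 16 h level was the higher one with uracil and the lower one without. Of them, Npc2c and Ent3 passed the filter only through the untreated 2 h library. The small heat shock protein gene Hsp22 was alone in the other direction, at -2.81, with 4.99 with uracil at 16 h and 19.7 at 2 h, and 22.02 untreated at 16 h and 10.4 at 2 h.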

How the results depend on the processing

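No named gene beyond 2-fold changed direction under any alternative run, while list medians within 0.15 of 0 could change sign with the scaling. The count of higher genes (121) was 76 with a pseudocount of 5, 224 with columns scaled to the same total, 238 with a mean of at least 1, 44 with a mean of at least 50 (32.6% of calls higher) and 250 with no filter. The count of lower genes (140) was 233, 91 and 249 under the same 3 filters. The other settings gave 91 to 126 higher and 100 to 141 lower, with 91 and 100 from leaving out genes that overlap another, which, like leaving out IDs with shared counts (121 and 140), was chosen after seeing the data. Thinning the deeper library gave 125 and 140. Higher genes also higher with uracil (71) came to 43 with a pseudocount of 5, 149, 22 and 154 under the filters in that order, and lower genes also lower with uracil (55) to 85 with a mean of at least 1 and 87 with no filter. The limma counts (16 higher, 20 lower) were 191 and 151 with no filter, 223 and 85 scaled to the same total, and 137 and 160 by DESeq2; edgeR gave 12 and 13, and 23 of the 36 limma genes were among its 25. The cause of these moves was not tested. Of 131 named-gene ratios, 62 moved beyond their counting interval when scaled to the same total, 21 with a pseudocount of 5 and 0 with the other pseudocount or size factors. Of 58 list medians, 35 moved when scaled to the same total. No paired analysis was possible because each group has 1 library and the labels carry no replicate numbers, apart from the limma model itself, in which treatment pairs the 2 times. With 1 library per group, no difference has a replicate check, and a difference between flies, dissections or library preparations cannot be told apart from one between times.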
